A study of Arabidopsis thaliana with 12 samples.

Results

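The comparison described here asks what supplemental far-red light did to transcript levels in Arabidopsis thaliana seedlings that were also given abscisic acid (ABA). It sets 3 arrays of far-red light with ABA against 3 arrays of white light with ABA, which are 6 of the 12 arrays of the series, and it covers 22746 probe sets, all those of the array that are not control probe sets. The other 6 arrays, 3 of white light and 3 of far-red light without ABA, served as the reference for the shade response in the absence of the hormone. Per the labels' protocols, all plants grew for 9 days at 22 °C in continuous white light with an intensity printed as 80 mmol per square metre and second, and were then treated for 24 hours. White light alone was continued in the white light groups, and far-red light printed as 6 mmol per square metre and second was added to it in the far-red groups. ABA was given at a dose printed as 0 or 1 mM. The prefixes of these units are the labels' own, and no comparison uses their size. RNA came from the aerial parts of 10-day-old plants, and the arrays of a group are biological replicates per their titles. The labels name no mutant, transgene or accession line.

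Plants sense the shade of neighbours through phytochrome, a red and far-red photoreceptor. Far-red-rich light converts it to its inactive form, which releases phytochrome-interacting transcription factors that raise auxin synthesis and drive elongation of stems and petioles. ABA is a hormone of drought and seed maturation, whose receptors release protein kinases that switch on stress genes and close stomata. A whole-shoot sample mixes many cell types, so fewer cells of a type and less RNA per cell cannot be told apart in any value below.

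Values are log2 expression levels from robust multi-array averaging (RMA), so a difference of 1 is a doubling. Array medians lay between 5.45 and 5.62. Pearson correlations between arrays of a group were 0.9955 to 0.9976, and those between the 2 ABA groups 0.9947 to 0.9967. MAS5 detection calls gave 65.7%, 65.3% and 64.3% of probe sets as present on the arrays of white light with ABA and 62.4%, 61.1% and 63.6% on those of far-red with ABA. The ABA groups thus did not overlap in this share, and its part in the results was not tested. EXPA7 and EXPA18, expansins of root hair cells, were called present on no ABA array, with levels of 3.30 to 4.07. LHCB4.1, a light-harvesting protein of photosystem II antennae, had levels of 12.73 to 12.97.

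With ABA present, far-red light changed 84 of the 22746 probe sets, 18 higher and 66 lower, at an adjusted p under 0.05. That is 0.369% of all probe sets, with 0.0791% higher and 0.29% lower. Without ABA, far-red light changed 1393, or 6.12%, of which 880 (3.87%) were higher and 513 (2.26%) lower. The share of higher calls without ABA depended on the scaling of the arrays and on single arrays. It was 63.2% as deposited, 23.2% (361 higher, 1197 lower) with each array centred on its median and 49.8% (574 higher, 578 lower) after quantile normalization. With ABA the share was 21.4%, 20.5% and 25.6% in the same order. At an unadjusted p under 0.05 the numbers were 2573 (11.3%) with ABA and 5023 (22.1%) without. The contrasts share 0 arrays. A test of the difference between them, the interaction of far-red and ABA, called 0 probe sets (0%), with 1465 (6.44%) at an unadjusted p under 0.05 and a smallest adjusted p of 0.4. The count of calls therefore differed between ABA levels, but no single gene passed a test of having responded differently. For a typical probe set the 95% interval of that difference reached 0.305 log2 units to either side.

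The calls with ABA rested on few arrays. Each of the 6 ABA arrays was left out in turn. Calls numbered 31 without far-red with ABA replicate 2, 48 without its replicate 3 and 68 without its replicate 1. They numbered 38, 36 and 44 without replicates 1, 2 and 3 of white light with ABA. The calls without ABA moved as much for some of the arrays without ABA: they numbered 418 and 625 without far-red replicates 2 and 3, and 427 and 460 without white light replicates 1 and 3. Of these, 201, 295, 211 and 236 were higher and 217, 330, 216 and 224 lower, beside 880 and 513 with all arrays. Without far-red replicate 1, in contrast, the calls without ABA numbered 1197, with 824 higher and 373 lower. Over 21 alternatives, 22 of the 84 stayed called in every one. None of the 84 turned in sign, but their ABA groups did not overlap, so leaving out an array could not turn it.

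The 84 probe sets all differed from white light in the same direction with and without ABA. Of them, 61 were called at both ABA levels, which is 72.6% of the calls with ABA and 4.38% of those without. The other 23 were called with ABA alone. Among the 61, the difference was smaller with ABA in 37 and larger in 24. In all 84 the 3 far-red arrays did not overlap the 3 white light arrays, as was so for 18.8% of all probe sets with ABA. The calls were made on these same arrays, so this separation largely follows from the choice and is no further evidence. The probe sets called with ABA included 60 that were present on all 6 ABA arrays and 6 that were present on none. The plot of both far-red differences shows the probe sets called at both levels spread along the line of equal change.

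**Figure D1:**
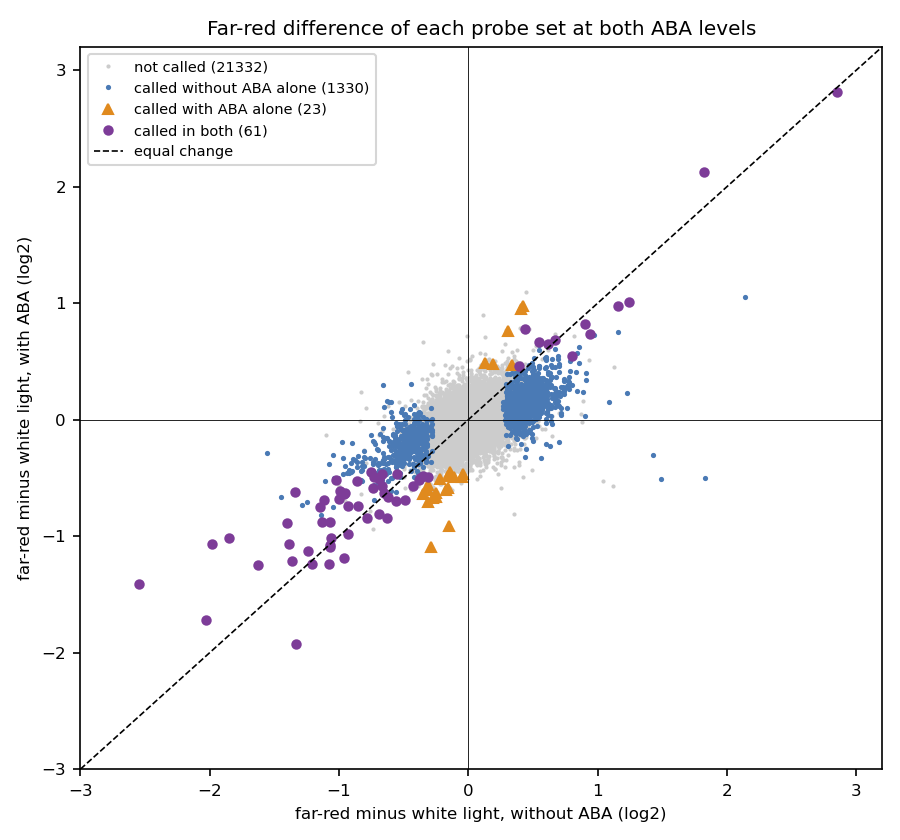
Each point is 1 of the 22746 probe sets, with its far-red minus white light difference (log2) without ABA on the horizontal axis and with ABA on the vertical axis. The 61 probe sets called at both ABA levels (purple circles) lie in the quadrants of equal sign, as do the 23 called with ABA alone (orange triangles), and most of those called without ABA alone (blue) lie between the dashed line of equal change and 0 on the vertical axis.

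Of the 84, 42 were listed with a single gene, 5 higher and 37 lower. The 5 rose by 0.65 to 1.01 and the 37 had differences of -1.72 to -0.45. The 42 that cannot be named here comprised 13 that rose, by 0.46 to 2.81, and 29 with differences of -1.93 to -0.47. They included the largest rise and the largest fall of the contrast. The unnamed probe set with the largest rise went from 3.86, 4.52 and 4.32 in white light with ABA to 7.08, 6.81 and 7.24 in far-red with ABA, a 7.03-fold rise. Its difference was 2.81 with ABA and 2.85 without. The one with the largest fall went from 5.77, 6.58 and 5.89 to 4.49, 4.08 and 3.89, with a difference of -1.93. With an intensity-trended robust variance it was not called (adjusted p = 0.0565).

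Among named genes, AT1G80130, which encodes a tetratricopeptide-repeat protein, had the largest rise. Its levels were 7.83, 7.54 and 7.73 in white light with ABA and 8.60, 8.90 and 8.63 in far-red with ABA. All far-red arrays lay above all white light arrays, as the naming rule required. The rise was 2.01-fold (difference 1.01, SE 0.12, adjusted p = 0.0013), beside a difference of 1.24 without ABA.

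IAA29, an Aux/IAA repressor of the auxin pathway and a textbook target of shade, also rose. Its levels were 4.01, 3.64 and 3.84 in white light with ABA and 4.68, 4.71 and 4.55 in far-red with ABA. The groups did not overlap, as the naming rule required. The difference was 0.82 (SE 0.12, adjusted p = 0.0043) with ABA and 0.90 without it. IAA29 was a dim probe set, called present on 0 of 3 arrays of white light with ABA and 2 of 3 of far-red with ABA, so no fold is given. The interaction was -0.09, with a 95% interval of -0.43 to 0.26.

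AT5G02580 and AT5G20790 rose with ABA and were not called without it. AT5G02580 went from 3.05, 3.15 and 3.23 to 3.78, 4.11 and 4.41, a 1.94-fold rise (adjusted p = 0.0043), against a difference of 0.41 without ABA. It was a dim probe set, called present on 2 of 3 arrays of white light with ABA. Without ABA it was present on 0 of 3 white light and 1 of 3 far-red arrays, so both differences lie near the background. AT5G20790 went from 6.72, 7.03 and 7.0 to 7.57, 7.87 and 7.60, a 1.70-fold rise (adjusted p = 0.0094), against a difference of 0.31. For neither did the test of the difference between ABA levels pass, with an adjusted p of 0.755 for both. AT5G20790 was no longer called without far-red with ABA replicate 2 or without white light with ABA replicate 1, where its difference was 0.66. AT2G27420, of the papain-like cysteine proteases, rose 1.57-fold (adjusted p = 0.0485) and was no longer called in 9 of the 12 fits that left out 1 array, with differences of 0.56 to 0.73 there. Of those 12 fits, the ones without white light replicate 1 or 3 or without white light with ABA replicate 1 kept it. It was also lost with each array centred on its median (adjusted p = 0.064) and when the compared groups alone were fitted (0.0558).

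**Figure D2:**
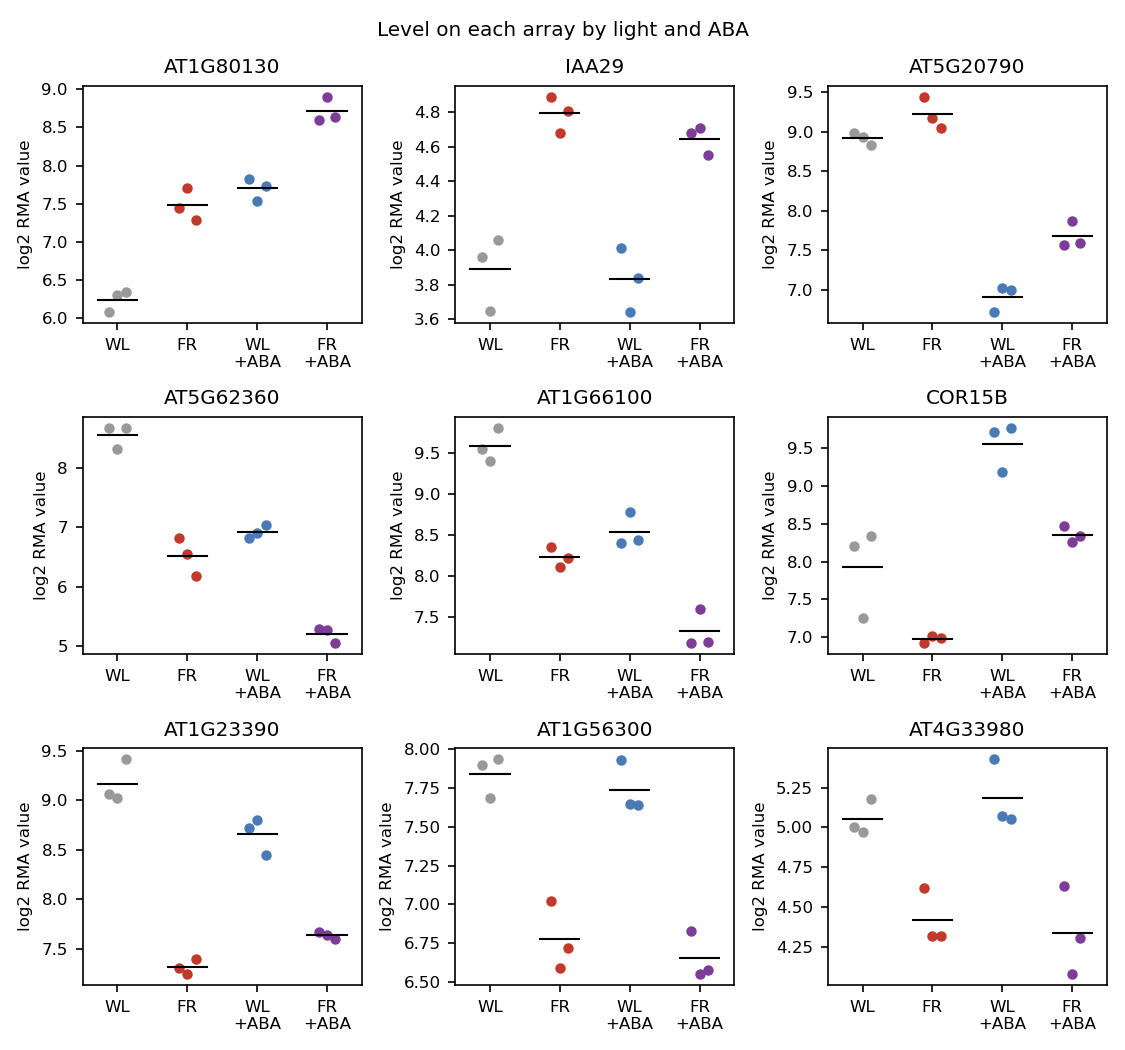
Log2 RMA level of 9 genes on each array (points) in white light (WL) and far-red (FR) without and with ABA, with group means as lines; vertical axes differ between panels and do not start at 0. In all 9 panels the 3 arrays of far-red with ABA do not overlap those of white light with ABA, as the rule that named the genes required. The far-red difference has the same sign without ABA.

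Falls were more numerous among named genes. AT5G62360, of the invertase and pectin methylesterase inhibitor family of cell wall proteins, had the largest. Its levels were 6.82, 6.90 and 7.04 in white light with ABA and 5.29, 5.27 and 5.05 in far-red with ABA. The fall was 3.29-fold (difference -1.72, SE 0.14, adjusted p = 3.5e-05), and the difference was -2.03 without ABA.

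AT1G66100, of the thionins, small antimicrobial peptides, went from 8.40, 8.78 and 8.44 to 7.18, 7.60 and 7.20, a 2.32-fold fall (adjusted p = 0.0008). AT1G22570, a membrane transporter of the major facilitator superfamily, fell 2.36-fold (adjusted p = 0.0036). Groups overlapped in neither gene, as the naming rule required, and the differences without ABA were -1.36 and -1.21.

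AT1G56300, with the DnaJ domain of HSP70 co-chaperones, went from 7.93, 7.65 and 7.64 to 6.83, 6.55 and 6.58. This 2.13-fold fall (adjusted p = 0.0008) had a difference of -1.09, beside -1.07 without ABA. AT5G43440, of the 2-oxoglutarate and Fe(II)-dependent oxygenases, fell 2.11-fold (adjusted p = 0.007), with differences of -1.08 and -1.07. For both genes the difference with ABA was thus as large as without it, with interactions of -0.02 (95% interval -0.39 to 0.35) and -0.01 (-0.50 to 0.48).

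AT1G23390, an F-box protein with Kelch repeats, fell at both ABA levels. Its levels with ABA were 8.72, 8.80 and 8.45 in white light and 7.67, 7.64 and 7.60 in far-red, a 2.03-fold fall (difference -1.02, adjusted p = 0.0008). Without ABA the difference was -1.85. The interaction of 0.83 (95% interval 0.50 to 1.17) had an unadjusted p of 8.9e-05 and did not pass over all probe sets (adjusted p = 0.4). With an intensity-trended robust variance it did (adjusted p = 0.0487).

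COR15B, a cold- and ABA-induced protein that protects chloroplast membranes, had levels of 9.71, 9.18 and 9.77 in white light with ABA and 8.47, 8.26 and 8.34 in far-red with ABA. This was a 2.29-fold fall (difference -1.19, SE 0.21, adjusted p = 0.0233), with a difference of -0.96 without ABA. The call was lost without far-red with ABA replicates 2 or 3 or white light with ABA replicates 1 or 3, at differences of -1.19 to -1.09, and with an intensity-trended robust variance (adjusted p = 0.119).

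AT4G33980, known as COR28, is a cold-regulated protein that acts in the circadian clock and light signalling. It went from 5.43, 5.07 and 5.05 to 4.63, 4.08 and 4.31, a 1.80-fold fall (adjusted p = 0.0133). Its homologue COR27, chosen after its values were seen, went from 6.24, 5.88 and 6.17 to 5.39, 5.26 and 5.65, a 1.58-fold fall (adjusted p = 0.0274). In both genes the groups did not overlap, as in all 84 called probe sets, and the differences without ABA were -0.63 and -0.62. AT4G33980 lost its call without far-red with ABA replicates 2 or 3 or white light with ABA replicate 1, at differences of -0.83 to -0.71. COR27 lost its call without far-red with ABA replicates 1 or 2 or white light with ABA replicates 1 or 3, at differences of -0.64 to -0.58, and when the compared groups alone were fitted.

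Of the 15 largest named falls, 7 more are given by their differences. They comprised AT2G05540 (a glycine-rich protein, difference -1.02), AT3G62550 (-0.88), UGT85A5 (a UDP-glycosyltransferase, -0.84), Fes1B (an exchange factor of HSP70, -0.81), AT1G70820 (-0.74), AT1G73750 (-0.74) and AT5G56100 (-0.69). All 7 were non-overlapping between ABA groups, as the naming rule required. They had adjusted p-values of 0.0122 to 0.0447 and were also called without ABA. Each of the 7 lost its call without far-red with ABA replicate 2 and without white light with ABA replicate 1, and in 4 to 9 of the 12 fits that left out 1 array. AT2G05540 and AT3G62550 also lost it with an intensity-trended robust variance. Their differences over those 12 fits ran from -1.15 to -0.56.

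The same contrast was then read from the other side, by taking the probe sets that far-red light changed without ABA and looking up their values on the ABA arrays, which took no part in choosing them beyond the joint RMA and a shared estimate of the spread. The 880 raised probe sets had a median difference of 0.44 without ABA and 0.16 with it, and 90.0% kept a positive sign. The 513 lowered ones had medians of -0.48 and -0.23, and 93.6% kept a negative sign. Over all probe sets 67.3% had the same sign at both ABA levels, and the median difference with ABA was -0.0035. With ABA, 12 of the 880 (1.36%) were called higher, against 0.0791% of all probe sets, and 49 of the 513 (9.55%) lower, against 0.29%.

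Choosing on the contrast without ABA favours large values in it, so the shrinkage just given is in part set by the choice. Other choices were therefore made as well. For the 84 probe sets chosen on the contrast with ABA, the medians were 0.75 with ABA and 0.59 without for the 18 higher, and -0.67 and -0.73 for the 66 lower. For the 2110 probe sets (9.28%) called on the far-red effect averaged over both ABA levels, an average whose error is independent of the difference between levels, the 1205 raised (5.3%) had medians of 0.23 with ABA and 0.39 without. The 905 lowered (3.98%) had medians of -0.28 and -0.37. The difference was smaller with ABA in 82.8% of the raised and 70.3% of the lowered.

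A score per array, the mean level of the 880 raised minus that of the 513 lowered probe sets, put the same values on the scale of arrays. It was -0.70, -0.64 and -0.52 on the arrays of white light with ABA and -0.24, -0.15 and -0.08 on those of far-red with ABA. Without ABA it was -0.86, -0.62 and -0.88 in white light and 0.16, 0.34 and 0.24 in far-red, the arrays that chose the probe sets. The far-red difference in the score was 0.46 with ABA and 1.04 without, and the arrays of far-red with ABA lay between the 2 groups without ABA.

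**Figure D3:**
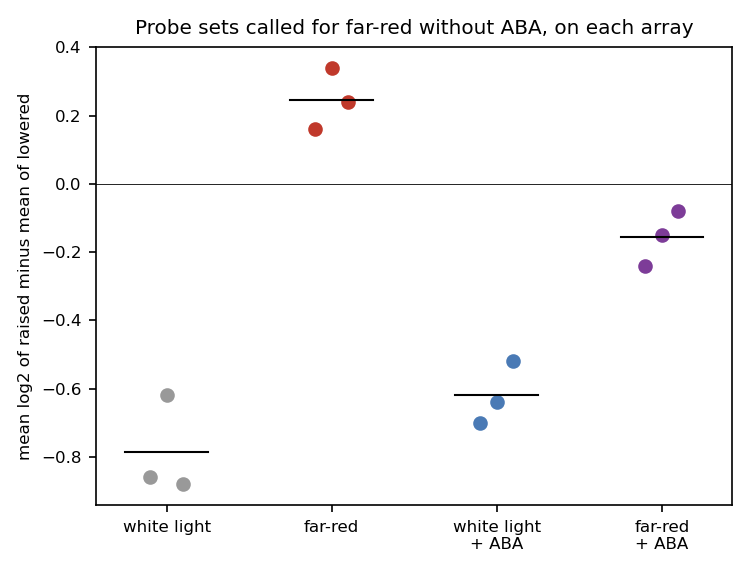
Mean log2 level of the 880 probe sets raised by far-red without ABA minus that of the 513 lowered, for each array (points) and as group means (lines). The 3 arrays of far-red with ABA (-0.24 to -0.08) lie above those of white light with ABA (-0.70 to -0.52) and below those of far-red without ABA (0.16 to 0.34), whose values helped choose the probe sets.

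The largest responders without ABA, called and changed at least 2-fold, were 0.198% of all probe sets. Of the 11 probe sets raised at least 2-fold, 8 (72.7%) kept a positive sign with ABA. Over all probe sets 67.3% had the same sign at both ABA levels, so this is near that share. Of the 11, 4 were called with ABA, where 0.0791% of all probe sets were called higher. Of the 34 lowered at least 2-fold, 34 kept a negative sign. With ABA 22 of them were called, where 0.29% of all probe sets were called lower. Whether raised and lowered probe sets differed in this respect was not tested.

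Among the 8 largest named rises without ABA, AT1G80130 and IAA29 were called with ABA, where 0.0791% of all probe sets were called higher. The other 6 were not called. AT3G02480, of the late embryogenesis abundant proteins, had a difference of 1.49 without ABA and levels with ABA of 8.90, 8.25 and 8.76 in white light and 7.93, 7.79 and 8.67 in far-red. The ABA groups overlapped, at a difference of -0.51 (SE 0.32, adjusted p = 0.566). BGLU28, a beta-glucosidase, had levels without ABA of 4.59, 4.97 and 5.45 in white light and 7.53, 6.01 and 5.76 in far-red. Its difference was 1.43 without ABA, or 0.88 without far-red replicate 1, and -0.30 with ABA (adjusted p = 0.756). The call without ABA was lost without white light replicate 1 for BGLU28 (1.23) and without far-red replicate 3 for AT3G02480 (1.26). The levels of AT3G02480 in white light without ABA were 5.86, 4.63 and 6.10. Without white light replicate 2 its difference was 1.04.

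AT2G43800, a formin that nucleates actin filaments, had a difference of 1.09 without ABA, or 0.83 without white light replicate 1, and 0.15 with ABA. AT1G80280, rpl20 (a protein of the plastid ribosome) and NRPA1 (the largest subunit of RNA polymerase I) had differences of 0.89, 0.91 and 0.80 without ABA and 0.24, 0.34 and 0.30 with it. AT1G80280 lost its call without ABA in the fits without far-red replicate 3 (0.75), white light replicate 1 (0.89) or white light replicate 3 (0.88). None of these 6 genes passed the test of a difference between ABA levels, with adjusted p-values of 0.533 to 0.763.

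Among the 8 largest named falls without ABA, 5 were called with ABA, where 0.29% of all probe sets were called lower, and the ABA groups did not overlap in any of the 8, as was so for 18.8% of all probe sets. The called ones were AT5G62360, AT1G23390, AT1G66100, AT1G22570 and AT2G39400, an alpha/beta hydrolase with differences of -1.34 without ABA and -0.62 with it (adjusted p = 0.0447). AT2G15960, AT1G62510 and AT3G15450 had differences with ABA of -0.66, -0.73 and -0.82 (adjusted p-values 0.265, 0.14 and 0.0887). AT2G39400 lost its call in 9 of the 12 fits that left out 1 array, at differences of -0.71 to -0.50, and also after quantile normalization (adjusted p = 0.0606) and when the compared groups alone were fitted (0.0635). AT3G15450 gained one without far-red replicate 1, at -0.82.

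**Figure D4:**
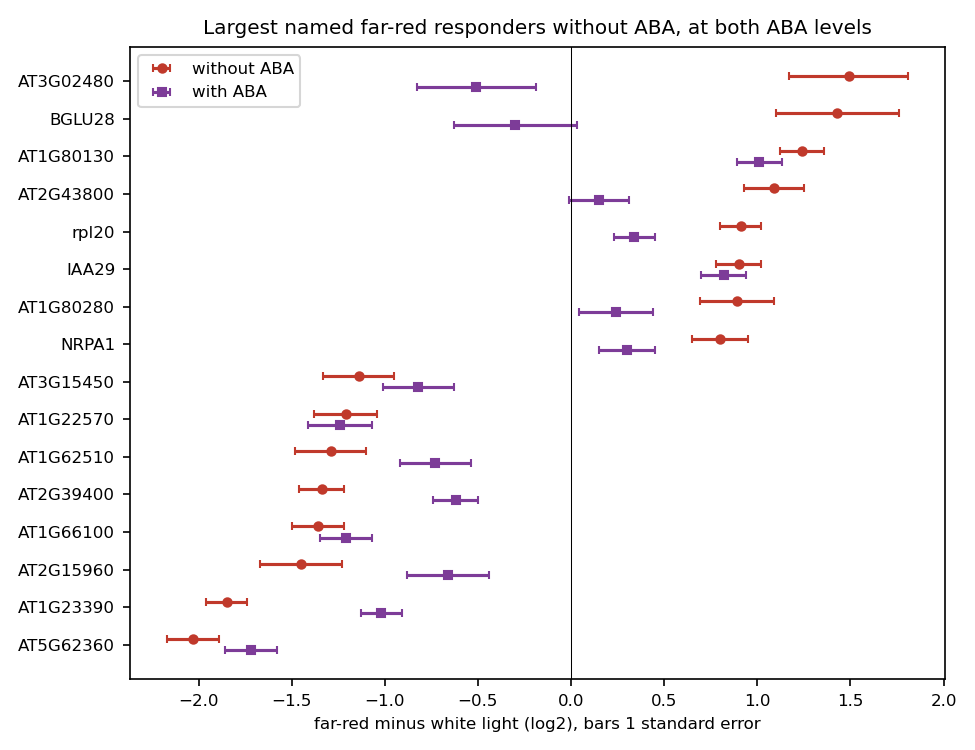
Far-red minus white light difference (log2, bars 1 standard error) of the 8 largest named rises and 8 largest named falls without ABA (red circles), with the difference of the same gene with ABA (purple squares). The 8 falls stay below 0 with ABA, from -1.72 for AT5G62360 to -0.62 for AT2G39400. AT3G02480 and BGLU28 lie at 1.49 and 1.43 without ABA and at -0.51 and -0.30 with it. The value of 1.49 is 1.04 without white light replicate 2, and that of 1.43 is 0.88 without far-red replicate 1.

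Gene lists of known pathways were measured only in part, because many probe sets are not named here. Of 55 lists, 48 had a measured gene. With 0.369% of all probe sets called with ABA, lists of this size with no call do not stand apart from the background. With ABA, 3 lists held a called gene, namely IAA29 among both shade markers and early auxin response genes and COR15B among ABA-responsive genes, and 45 held none. Without ABA, 15 lists held one.

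Shade markers had 6 measured genes, of which IAA29 alone rose with ABA, and their median difference was 0.20. HAT2, a homeodomain factor of the family of the classic shade gene, had levels of 7.17, 6.90 and 6.66 in white light with ABA and 7.18, 7.25 and 7.49 in far-red with ABA (difference 0.40, adjusted p = 0.238). BIM1, a brassinosteroid-related transcription factor, and FHL, which carries phytochrome A into the nucleus, both had differences of 0.20. XTH33 and YUC2, an auxin synthesis enzyme, had differences of -0.07 and -0.22. BIM1 was called without ABA, at 0.35. HAT2, FHL, XTH33 and YUC2 were not called without ABA, at 0.02, -0.16, -0.15 and 0.15. FHL and XTH33 were dim: FHL was present on 2 of 3 arrays in each ABA group, and XTH33 on 1 in white light with ABA and 0 in far-red with ABA.

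Early auxin response genes had 12 measured members, with 1 called higher and a median of -0.04. WES1, a GH3 enzyme that conjugates auxin to amino acids, had levels of 6.46, 6.51 and 6.69 in white light with ABA and 6.88, 7.03 and 7.34 in far-red with ABA. The groups did not overlap, and the difference of 0.53 missed the threshold (adjusted p = 0.0822), whereas it was called without ABA at 0.51. GH3.3, of the same family, had a difference of 0.09 with ABA and was called at 0.54 without.

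Of 27 expansins and xyloglucan endotransglucosylases, enzymes and proteins that loosen the cell wall, 0 were called with ABA, near the background of 0.369%, and 13 had a positive difference. Without ABA, XTH19 (0.60) and EXLB1 (0.52) rose and EXLA1 (-0.92) fell. With ABA their differences were 0.52, 0.35 and -0.46, the same signs, with adjusted p-values of 0.122, 0.28 and 0.283.

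ABA-responsive genes had 7 measured members, of which COR15B fell, and a median of -0.24. COR15A and COR47, like COR15B known from cold and drought, had differences of -0.25 and -0.24, the linker histone HIS1-3 had -0.29, and the dehydrin LTI30 had 0.07.

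Ubiquitin-like proteins of the ATG8 family, which coat autophagosomes, made up 9 of the 10 measured autophagy genes. Without ABA 4 of the 10 fell, where 2.26% of all probe sets did. With ABA 0 were called lower, where 0.29% of all probe sets were, so the 0 is near the background, and 8 had negative differences. ATG8E had differences of -0.92 without ABA and -0.43 with it, ATG8F -0.55 and -0.30, ATG8H -0.49 and -0.24, and APG8H -0.28 and -0.27. With ABA their adjusted p-values were 0.163 to 0.361, and ATG8F, for one, went from 9.45, 9.38 and 9.36 to 9.13, 9.12 and 9.05 without overlap.

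Flavonoid and anthocyanin genes, which make pigments that absorb light, had 7 measured members and 0 calls at either ABA level. Their median difference was -0.16 with ABA and 0.27 without. With ABA 6 differences were negative and 1 was positive, at 0.25. At an unadjusted p under 0.05, 3 were lower and 1 was higher. DFR, AT5MAT and UF3GT, late enzymes of anthocyanin synthesis, had differences of -0.35, -0.41 and -0.41 with ABA and 0.29, 0.35 and 0.28 without. The interactions of these 3 genes had unadjusted p-values of 0.0068, 0.0023 and 0.01 and did not pass (adjusted p-values 0.736, 0.653 and 0.736). DFR levels were 10.74, 10.51 and 10.58 in white light with ABA and 10.24, 10.50 and 10.07 in far-red with ABA, so the groups did not overlap but came within a small step of each other.

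Of 69 genes encoded in the plastid genome, 0 were called with ABA, near the background of 0.369%. A positive difference was seen in 46, and the median was 0.05, beside -0.0035 over all probe sets. The RNA was labelled from an oligo-dT primer, and how well this captures plastid transcripts, rpl20 among them, was not tested. Without ABA 6 were called, all higher (background 3.87%), and the median was 0.11. The 6 kept a positive sign with ABA, where 67.3% of all probe sets had the same sign at both ABA levels. Among them were rps15 (0.45), rbcL, the large subunit of Rubisco (0.23), and rpoC1, a subunit of the plastid RNA polymerase (0.07). psaJ, a photosystem I subunit, had a difference of -0.46 (adjusted p = 0.0587).

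GI, the clock and flowering protein GIGANTEA, had levels of 5.61, 5.44 and 5.97 in white light with ABA and 6.02, 6.26 and 6.18 in far-red with ABA (difference 0.48, adjusted p = 0.142), and was called without ABA at 0.70. JMT, which methylates jasmonic acid, and SAG29, a sugar transporter of senescing leaves, were called without ABA at 0.60 and -0.60 and had differences of -0.21 and 0.15 with it. The 6 measured reference genes had a median of -0.02 with ABA and 0 calls.

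**Figure D5:**
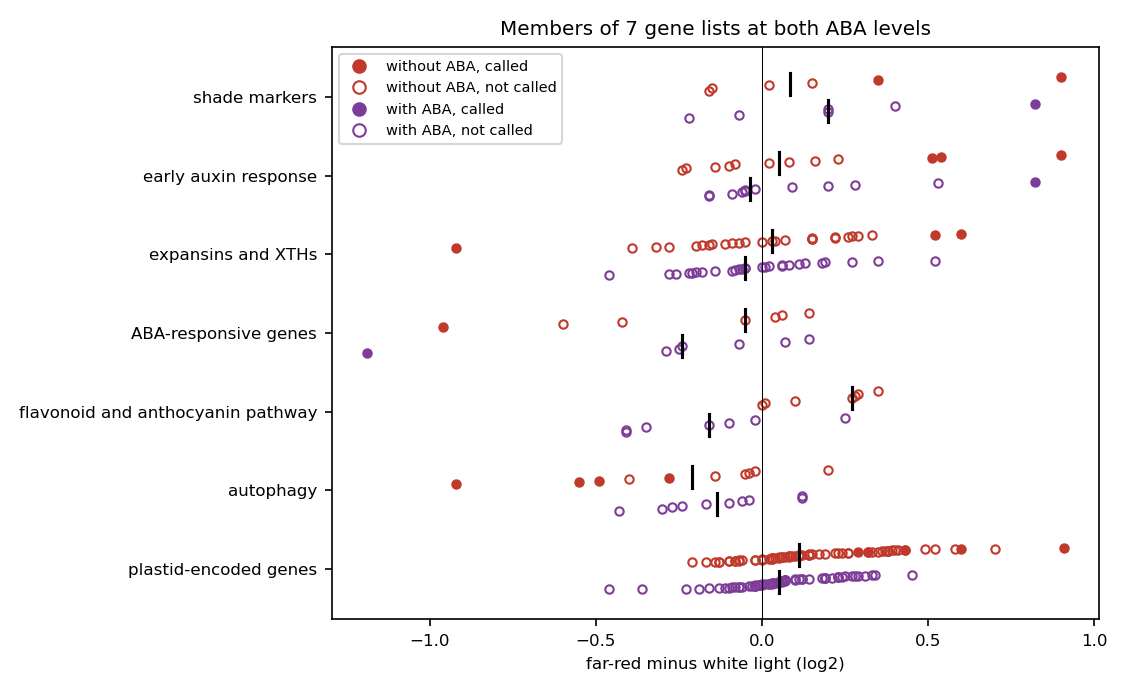
Far-red minus white light difference (log2) of each measured gene of 7 lists without ABA (red) and with ABA (purple); filled circles were called, open circles were not, and short black lines mark the medians. With ABA, IAA29 (0.82, in 2 lists) and COR15B (-1.19) are the filled circles, and the flavonoid list has medians of 0.27 without and -0.16 with ABA.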

How the data were processed

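Total RNA of seedling shoots was labelled from an oligo-dT primer and hybridised to 1-colour Affymetrix arrays, per the labels' protocols. The log2 values that the authors deposited come from RMA with the affy package, and the detection calls from MAS5, per the submitters' processing notes; their versions and the genome build used are not given in the sources used for this work. RMA removes most uniform shifts between arrays and compresses low values. The file held 22810 probe sets, of which 64 controls were left out. The platform table listed 13513 probe sets with 1 gene, 503 with several and 8730 not at all; 13436 took their symbol from RefSeq (TAIR10.1).

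Tests used limma 3.58.1 (R 4.3.3), with 1 mean for each of the 4 groups fitted over the 12 arrays, then contrasts and eBayes (two-sided, Benjamini-Hochberg over all probe sets, threshold 0.05). A call means passing it. The number of arrays limits the precision. Replicate numbers recur in all groups, and the labels state no pairing. Deviations from group means correlated above 0.1 in 8 of 18 same-numbered pairs (-0.05 to 0.27), and the numbers were not taken as pairs. However, 11 of 12 arrays correlated best with their own number, so a fit with the replicate number as a block is given below. Where a group had marginal calls and no present call, the fold is left out.

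Named were the 15 largest rises and falls with ABA among called, non-overlapping probe sets of 1 gene (fewer rose), the 8 largest each way without ABA, measured shade markers, called list members and examples. The comparison and gene lists were chosen with earlier results of these data known. Alternatives covered scaling, filters, variance model, array weights, a replicate block, the arrays in the fit and each array left out. Figures used matplotlib 3.10.9 in Python 3.11.15.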

Additional observations from a re-analysis of the deposited data

How the results depend on the processing

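Calls with ABA numbered 73 to 103 under median centring, quantile normalization, a fit of the compared groups alone, a filter on present calls and the replicate block. They rose to 137 with array weights and 149 with an intensity-trended robust variance, and 2573 passed an unadjusted p under 0.05. Leaving out each array gave 31 to 81 with ABA, 418 to 1689 without ABA and 0 to 2 for the interaction. The fit of the compared groups alone gave 642 calls without ABA. The trended variance gave 2 interaction calls (AT1G23390 and an unnamed probe set), and 1465 passed unadjusted. Raised probe sets also called with ABA numbered 20 with array weights, 30 with the trended variance and 20 with the replicate block, and lowered ones 76 with the trended variance and 17 to 45 over the arrays left out. The median difference with ABA of lowered probe sets was -0.35 to -0.20 over the arrays left out, and the medians were 0.25 and -0.45 for those at least 1.5-fold changed without ABA. AT1G80280, not called, ran from -0.02 without far-red with ABA replicate 3 to 0.49 without its replicate 2. The causes were not tested, except that leaving out arrays reduces their number.

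With the replicate number as a block, 103 probe sets were called with ABA and 1762 without, and 11 of 12 arrays correlated best with their own number, a hint from the data and not from the design. AT1G62510 (-0.73) was called with ABA under the block alone (adjusted p = 0.0191). The unadjusted threshold and the choice on the averaged effect were added after the data were seen. Groups of 3 arrays limited the precision: half-widths of the unadjusted 95% interval of the interaction had a median of 0.305. The adjusted test was stricter. Interactions of 0.83 for AT1G23390 (adjusted p = 0.4) and -2.00 for AT3G02480 (adjusted p = 0.533) were not called in the main fit. Dim probe sets such as IAA29 and AT5G02580 were near background, where RMA compresses differences.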
